A study of Arabidopsis thaliana with 8 samples.

Results

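*COP1*, *SPA1*, *SPA2*, *SPA3*, *SPA4* and *HOS1* encode ubiquitin ligase components that limit the amount of CONSTANS (CO) protein, and they are described here from leaf RNA of *Arabidopsis thaliana*. The 6 genes were chosen by their locus identifiers for this role, by a rule that uses no measured value, although earlier results of these data were known when the group was proposed, and all 6 are among the 21960 genes of the deposited tables. Leaves of 4-week-old plants of the ecotype Col-0, grown in long days of 16 h light and 8 h darkness at 20 °C according to the labels and left untreated, were sequenced as 2 libraries for each of 4 genotypes, which makes 8 libraries. The genotypes were the wild type, the *constans* mutant *co-SAIL*, and the transgenic plants *35S::miP1a* and *35S::miP1b*, which overexpress a B-Box microProtein with a FLAG tag from the *35S* promoter, a promoter that is active in most tissues. Sources differ on the 2 libraries of a genotype, which the series description treats as technical replicates and the methods as separate samples, and the hour of harvest is not given in the sources used here. The methods give 20 °C for flowering-time experiments and a different temperature for gene expression studies. Their section on sequencing names no temperature. Each value below is 1 mean over all 8 libraries, made by the authors. It has no spread between replicates and does not separate the genotypes, so whether the 6 genes differ between wild type, *co-SAIL* and the overexpression plants was not analysed here.

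CO activates the florigen gene *FT* in the leaf vasculature, and its protein is held low for much of the day by proteolysis. COP1 is a RING-type E3 ubiquitin ligase that forms complexes with the SPA proteins, and these complexes work with a scaffold made of CUL4 and DDB1 and remove CO in darkness. Light acting through cryptochromes and phytochrome A inhibits the COP1-SPA complex. HOS1 is another RING-type E3 ligase, which removes CO early in the day, targets the cold-response regulator ICE1, and is associated with the nuclear pore. The mRNA level of a ligase does not measure its activity, which depends on light and on the localization of the protein.

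The most abundant transcript of the 6 genes was that of *SPA3*, followed by *SPA1*, while *SPA4*, *COP1*, *SPA2* and *HOS1* were lower and closer to each other. Because longer transcripts yield more reads, levels of different genes were compared as CPM, the read count of a gene scaled to the library total, divided by the length of the mature transcript in kb. On this scale the 6 genes spanned a 3.94-fold range. All of them lay above the median gene of the tables, which had 6.54 CPM per kb.

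COP1 (AT2G32950), the catalytic subunit of the complex, spans chr2:13977881-13983609 of TAIR10.1 (plus strand) and has 13 exons. Its mean abundance was 36.7 CPM, which corresponds to 4967 reads over all libraries and has a 95% exact Poisson interval of 35.7 to 37.7 CPM. This was the lowest CPM value of the 6 genes. With a transcript of 2474 bases, the level of *COP1* was 14.8 CPM per kb (95% interval 14.4 to 15.2), which placed it between *SPA4* and *SPA2* in the order per length. These intervals, like all intervals given here, cover counting error only. The authors mapped reads with Bowtie to the genome sequence, in which exons are separated by introns. Whether reads across exon junctions were lost in mapping was not tested. *COP1* has the most exons and the shortest first transcript model of the 6 genes. Such a loss would therefore lower its level per length the most, and would change its place and its ratios to the other genes.

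The RING finger that carries the ligase activity of COP1 distinguishes it from its SPA partners. A search with a C3HC4 RING pattern found 1 match in the COP1 protein, at residues 52 to 89, and 0 matches in the proteins of SPA1, SPA2, SPA3 and SPA4. It also found 0 matches in HOS1, whose RING domain deviates from this pattern. Among the first protein models of 21440 genes of the tables, 138 (0.644%) contained the pattern. The coding sequence of the pattern in *COP1* lies in exon 1, at chr2:13978153-13978266 of TAIR10.1 on the plus strand, and is shown from 5′ to 3′ with the codons of the 7 cysteines and the histidine that bind zinc in capitals.
COP1: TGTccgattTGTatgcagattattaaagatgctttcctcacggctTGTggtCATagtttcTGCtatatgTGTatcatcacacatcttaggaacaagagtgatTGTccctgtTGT

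SPA1 (AT2G46340) is the family member best known for its role in flowering time, and *spa1* mutants flower early in short days. The gene spans chr2:19022154-19027528 (minus strand) and has 8 exons. Its mean abundance was 119 CPM (95% interval 118 to 121, from 16182 reads). Per length, *SPA1* reached 30.4 CPM per kb (95% interval 29.9 to 30.9), which is 2.05 times the level of *COP1* (95% exact conditional interval 1.99 to 2.12).

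SPA2 (AT4G11110), which acts mainly in dark-grown seedlings, spans chr4:6771605-6777225 (plus strand) with 8 exons. Its mean abundance was 56.6 CPM (95% interval 55.3 to 57.9, from 7662 reads). Its transcript of 3964 bases is the longest first model of the 6 genes, and per length its level of 14.3 CPM per kb (95% interval 14.0 to 14.6) was the lowest of the SPA family. *COP1* and *SPA2* were the only neighbours in the order whose intervals overlapped, and the interval of their ratio, 1.04 (95% interval 1.002 to 1.077), reached almost to equality.

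SPA3 (AT3G15354) and SPA4 (AT1G53090) are close relatives that have been linked to growth of the adult plant. *SPA3* spans chr3:5169095-5173105 (minus strand) with 7 exons and had the highest level, 159.9 CPM (95% interval 158 to 162, from 21654 reads). *SPA4* spans chr1:19783185-19786902 (plus strand) with 8 exons and had 52.9 CPM (95% interval 51.7 to 54.2, from 7168 reads). Per length, *SPA3* had 48.4 CPM per kb (95% interval 47.8 to 49.1) and *SPA4* had 17.4 CPM per kb (95% interval 17.0 to 17.8). The most similar pair of the family was thus far apart in mean transcript level.

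HOS1 (AT2G39810) spans chr2:16612777-16618122 (plus strand) and has 10 exons. Its mean abundance was 40.2 CPM (95% interval 39.1 to 41.3, from 5440 reads). Per length, *HOS1* had the lowest level of the 6 genes with 12.3 CPM per kb (95% interval 11.97 to 12.62), which is 0.829 times that of *COP1* (95% interval 0.798 to 0.862).

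**Figure D1:**
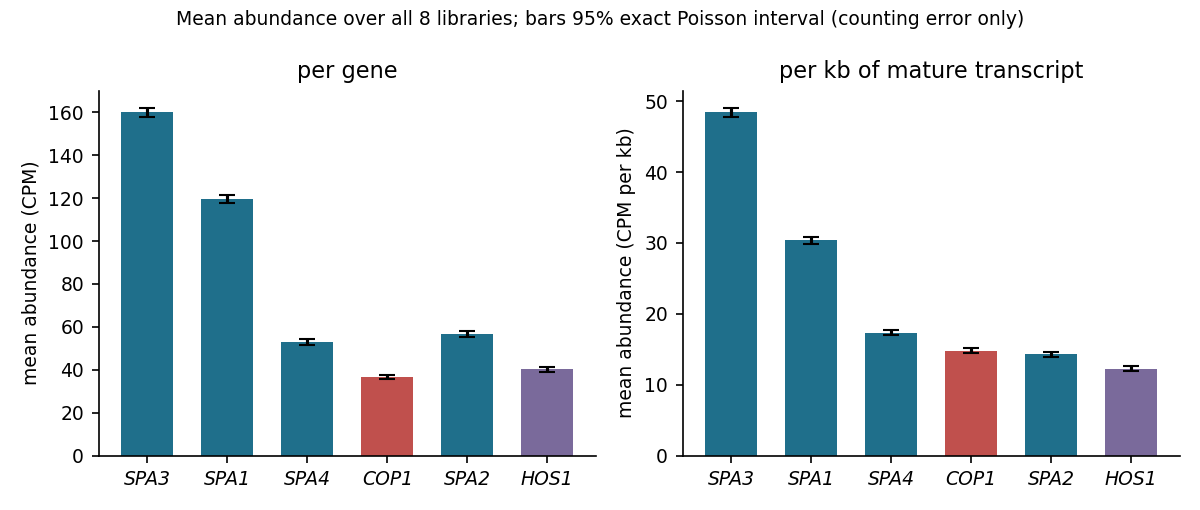
Mean abundance of the 6 genes over all 8 libraries, in CPM per gene (left) and in CPM per kb of mature transcript (right), with SPA genes in blue, *COP1* in red and *HOS1* in violet. Error bars are 95% exact Poisson intervals for counting error; *SPA3* (48.4 CPM per kb) and *SPA1* (30.4 CPM per kb) stand above the other genes, which lie between 12.3 and 17.4 CPM per kb.

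In the order per length, *SPA3* was 1.59 times higher than *SPA1* (95% interval 1.56 to 1.63) and *SPA1* was 1.75 times higher than *SPA4* (95% interval 1.70 to 1.80). The next steps were smaller. *SPA4* exceeded *COP1* by a factor of 1.17 (95% interval 1.13 to 1.22), and *SPA2* exceeded *HOS1* by a factor of 1.16 (95% interval 1.121 to 1.202). Because variation between plants is not part of these intervals, a step of this size can be told from counting error in the pooled reads and was not tested against the spread between libraries. The intervals also leave out any loss of reads across exon junctions, which would lower *COP1* the most and was not tested.

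The order at its lower end also depended on the definition of gene length. With the coding length in place of the transcript length, *SPA2* (18.2 CPM per kb) came before *COP1* (18.1 CPM per kb). The other 4 genes kept their places. With the longest annotated transcript or with the union of all exons, all 6 genes kept their places. *SPA3* and *SPA4* have 5 annotated transcripts each, *COP1*, *SPA1* and *HOS1* have 2, and *SPA2* has 1, and the tables give 1 value per gene.

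**Figure D2:**
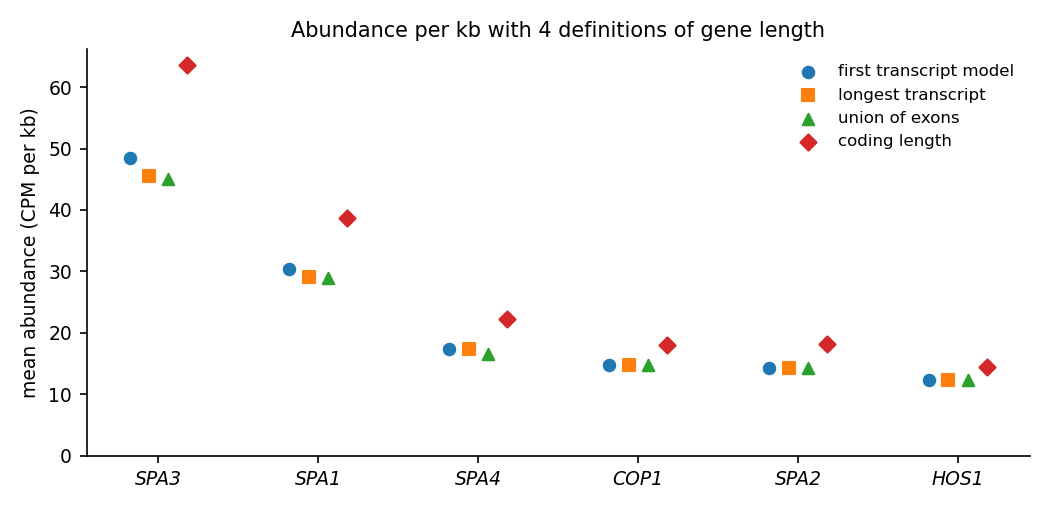
Mean abundance per kb of the 6 genes, with the length taken from the first transcript model (circles), the longest transcript (squares), the union of exons (triangles) or the coding part (diamonds). *SPA3* and *SPA1* are the highest with each definition, and *COP1* and *SPA2* exchange places with the coding length (18.1 and 18.2 CPM per kb).

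Added together, the 4 SPA genes had 110 CPM per kb, which is 7.45 times the level of *COP1*. Within this sum, *SPA3* contributed 43.8% and *SPA1* contributed 27.5%. *SPA4* contributed 15.7% and *SPA2* contributed 12.9%. *SPA1* and *SPA3* together accounted for 71.3% of the SPA transcripts, and for 71.8% when CPM was not divided by length. The values are shares of mRNA and carry no information on how many SPA proteins occupy a complex. The ratio of the sum to *COP1* would be lower if reads across exon junctions were lost in mapping, which was not tested.

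COP1 has 675 residues, and the SPA proteins have 1029 (SPA1), 1036 (SPA2), 837 (SPA3) and 794 (SPA4). In global alignments, SPA3 and SPA4 shared 78.3% of the residues of the shorter protein. SPA1 and SPA2 shared 43.9%, and identities between the SPA1 or SPA2 and the SPA3 or SPA4 proteins ranged from 40.9% to 43.3%. COP1 shared 35.0% to 38.8% with the SPA proteins, which like COP1 end in a WD-repeat domain. HOS1, with 927 residues, is not a relative of the others and shared 18.8% to 25.3%, which gives the level that unrelated proteins reach in this kind of alignment.

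Since *SPA3* and *SPA4* are similar, reads from one of them could be counted for the other. The longest run of identical bases in the 2 transcripts was 32, whereas other pairs among the 6 transcripts shared at most 17. This run is shown in capitals with 15 bases on either side, because it marks the stretch where the 2 transcripts are hardest to tell apart. The stretch shown, 62 bases with the flanks, lies in exon 1 of *SPA3* at chr3:5172113-5172174 on the minus strand. In *SPA4* it lies in exon 2 at chr1:19784018-19784079 on the plus strand, both in TAIR10.1.
SPA3: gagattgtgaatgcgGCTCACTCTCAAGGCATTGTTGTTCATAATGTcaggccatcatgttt
SPA4: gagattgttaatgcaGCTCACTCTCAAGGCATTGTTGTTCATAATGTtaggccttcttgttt

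Runs of 40 bases in the exons of the 6 genes were looked up on both strands of the whole genome, and 0 of them occurred at a second place. A read of that length inside a single exon and without mismatches therefore has 1 origin for each of the 6 genes. Mapping with mismatches and reads across exon junctions were not examined. The 3′ end of *SPA3* overlaps the oppositely oriented gene AT3G15350 by 135 bases, which is 4.09% of the *SPA3* transcript. AT3G15350 had 29.9 CPM, and without strand information reads from this overlap cannot be assigned. *SPA4* overlaps AT1G53100, which had 1.10 CPM, by 3 bases. The other 4 genes overlap no annotated gene.

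Among all 21960 genes, *SPA3* ranked 992 from the top in CPM and *SPA1* ranked 1453. *SPA2* ranked 3393 and *SPA4* ranked 3640, followed by *HOS1* at 4769 and *COP1* at 5183. *COP1* thus exceeded 76.4% of the genes and *SPA3* exceeded 95.5%. Per length, the genes exceeded between 65.2% (*HOS1*) and 89.7% (*SPA3*) of the 21911 genes that have a length in the annotation.

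**Figure D3:**
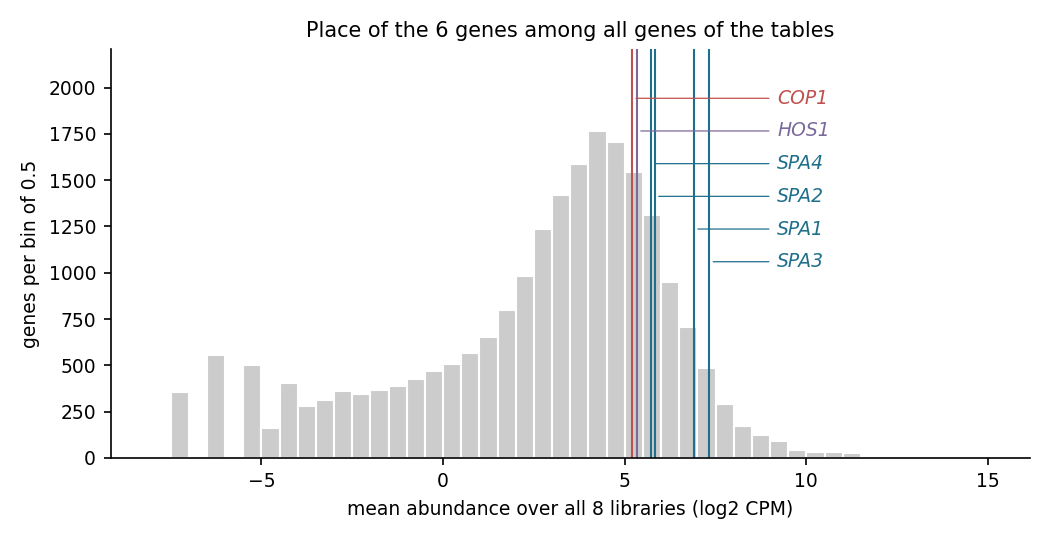
Distribution of the mean abundance of all 21960 genes in log2 CPM (grey bars, genes per bin), with vertical lines for the 6 genes. *COP1* lies at 5.20 and *SPA3* at 7.32 on this log2 scale, to the right of the peak of the distribution.

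The transcript of *CO* itself (AT5G15840) was low. It had 5.55 CPM (751 reads), or 2.06 CPM per kb. Each of the 6 genes exceeded *CO* per length, from 5.96 times for *HOS1* (95% interval 5.53 to 6.45) to 23.5 times for *SPA3* (95% interval 21.8 to 25.3), with *COP1* at 7.19 times (95% interval 6.66 to 7.78). The mean of *CO* includes the 2 libraries of *co-SAIL*, a mutant of *CO* itself, and the 4 genotypes may differ in *CO*, so these ratios describe the pooled libraries and not the wild type, and their intervals do not cover this. Length is a further limit, because *CO* was divided by a first transcript model of 2691 bases. Other lengths were applied only to the 6 genes. A shorter length for *CO* would lower these ratios, and their intervals do not cover this either. As background, *CO* acts in the vasculature and its transcript level follows the time of day. *FT*, the target of CO, had 3.04 CPM per kb in the pool of the 4 genotypes, whose separate levels of *FT* are not given by this mean, and *GI*, a clock-associated protein that COP1 also removes, had 1.25 CPM per kb. *FKF1*, a blue-light receptor that stabilizes CO, reached 13.0 CPM per kb and lay between *HOS1* and *SPA2*. *TSF*, a close relative of *FT*, had the lowest value of these genes with 0.608 CPM per kb. Because the hour of harvest is not given, the values of all these genes belong to an unstated time of day.

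Of 12 genes listed as substrates of COP1 or HOS1, 11 were measured, with a median of 10.3 CPM per kb, against 6.54 CPM per kb over all genes. Of the 11, 6 were below *HOS1*, the lowest of the 6 degraders, and 65.2% of all genes were below *HOS1* as well, so the count is no feature of the substrates. The highest per length was *HYH* (35.3 CPM per kb), the homologue of the light-response factor *HY5*, which itself had 14.8 CPM per kb. This place rests on a short transcript model of 558 bases for *HYH*, against 1028 bases for *HY5*. Without division by length *HYH* had 19.7 CPM, below the highest substrate value of 50.7 CPM. Other lengths were not tried for the listed genes. The lowest substrate was *HFR1* (0.133 CPM per kb, from 25 reads), a bHLH factor of shade and far-red responses. The median of the 6 degraders was 16.1 CPM per kb.

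Components of the scaffold on which COP1 and SPA act ranged from 7.32 to 29.1 CPM per kb. All 7 listed genes were measured, with a median of 16.9 CPM per kb, beside 14.8 CPM per kb for *COP1*. *CUL4*, the cullin, had 21.7 CPM per kb, and the adaptor genes *DDB1A* and *DDB1B* had 16.9 and 7.43 CPM per kb. *RBX1*, which recruits the ubiquitin-conjugating enzyme, was the highest at 29.1 CPM per kb, and *DDA1*, a small subunit, was the lowest at 7.32 CPM per kb. *SPA3* exceeded each of the 7 scaffold genes, and it exceeded 89.7% of all genes as well, so the count is no feature of the scaffold. *SPA1*, at 30.4 CPM per kb, was close to *RBX1*, and with the longest transcript or the union of exons the value of *SPA1* was 29.1 or 28.9 CPM per kb, so their order is not settled. The 10 subunit genes of the COP9 signalosome, which regulates cullins, had a median of 13.7 CPM per kb. They ranged from 3.47 (*CSN5B*) to 19.0 CPM per kb (*CSN5A*), which is also below *SPA1* and *SPA3*. Of all genes, 84.0% were below *SPA1* too.

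Among the pathway lists, only that of the photoreceptors had genes above *SPA3*, beside 2259 of the 21911 genes with a length. *CRY1* had 58.5 and *CRY2* 55.7 CPM per kb, and both encode blue-light receptors that bind the COP1-SPA complex. The median of the 8 photoreceptor genes was 20.1 CPM per kb, and the lowest was the phytochrome gene *PHYD* with 5.52 CPM per kb. *RUP1* and *RUP2*, which encode small WD-repeat proteins related to COP1 and SPA, had 1.43 and 4.23 CPM per kb. Both were below all 6 genes, as were 65.2% of all genes. The genes of 4 partners of HOS1 ranged from 7.77 (*NUP160*) to 15.6 CPM per kb (*FVE*), with *NUP96* at 10.7, so *HOS1* lay inside the range of its partners.

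**Figure D4:**
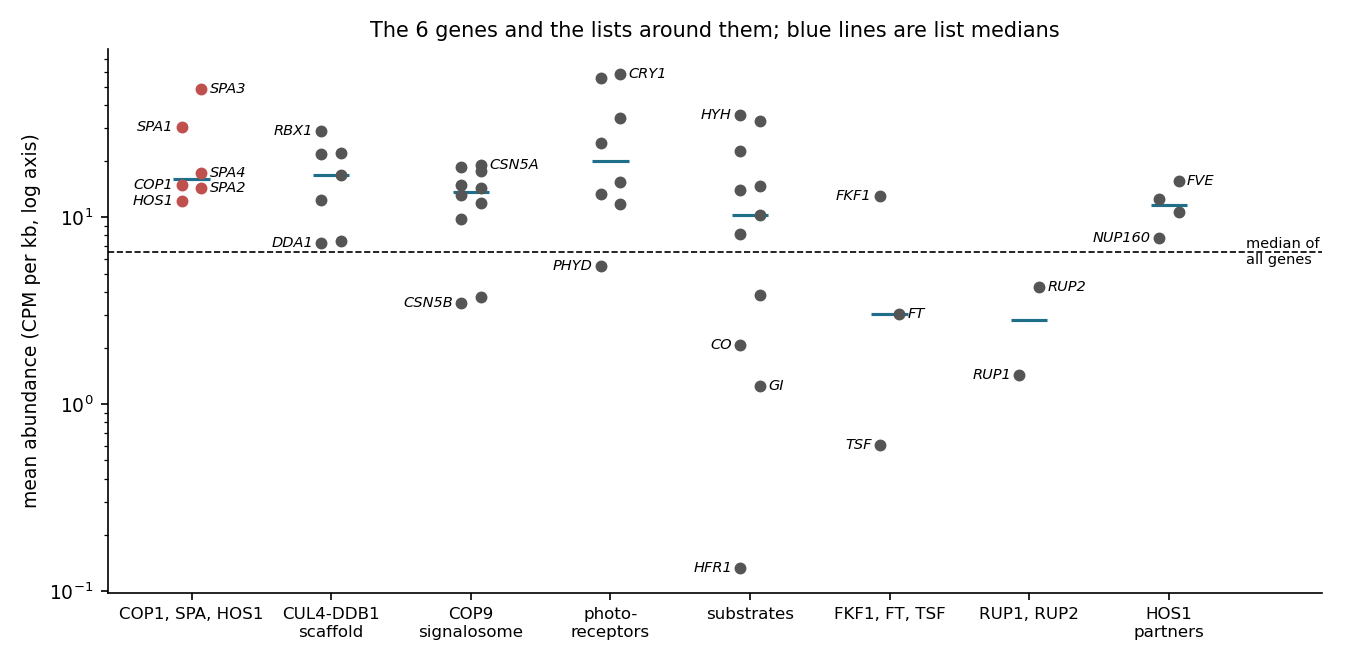
Mean abundance per kb (log axis) of the 6 genes (red) and of 45 genes in 7 lists around them (grey), with list medians as blue lines and the median of all genes (6.54 CPM per kb) as a dashed line. The 6 genes lie between 12.3 and 48.4 CPM per kb, *CRY1* (58.5 CPM per kb) is above them, and *CO* (2.06 CPM per kb) is below them.

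The pooled reads had the composition of leaf tissue. The 4 leaf markers ranged from 3868 CPM (*LHCB1.3*) to 21618 CPM (*RBCS1A*), and the phloem companion cell marker *SUC2* had 110.6 CPM. The 3 floral organ genes *AP3*, *PI* and *AG* had at most 0.310 CPM, *COBL9* of root hairs had 0.0148 CPM and the seed storage gene *CRA1* had 0.0369 CPM. In bulk leaves, fewer cells expressing a gene and less RNA per cell cannot be told apart.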

How the data were processed

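RNA of 8 leaf libraries was processed by the authors, who trimmed reads with Trimmomatic 0.32, mapped them to TAIR10 with Bowtie in RobiNA, counted them per gene and fitted edgeR 2.6.12 with default normalization. Of the 3 deposited tables, the column of log2 mean CPM over all libraries was used. It was identical in the 3 tables. The 4 other columns of each table hold the authors' own comparisons with Col-0 (fold change, likelihood ratio, p-value and FDR) and were not used, and values per library were not analysed here. No test between genotypes was therefore run, although the planned analysis provided for one with counts per library.

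The number of reads behind a value was taken from the 353 genes with the lowest value, which correspond to 1 read in total and 0.00738 CPM, so that the 8 libraries together hold an effective 135428985 reads. Of the 2794 genes with up to 20 such reads, 100% lay within 0.1 of a whole number, and of the 907 genes with more than 20 and up to 50 reads 94.5% did. At higher abundance the mean made by the authors with edgeR weights libraries unequally, so that reads are approximate. The calculation of reads was checked on simulated totals without unequal weights, so the check does not cover this approximation. Intervals are 95% exact Poisson intervals, and ratios have exact conditional (Clopper-Pearson) intervals. They cover counting error only.

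Positions, lengths and sequences come from the RefSeq annotation of TAIR10.1, matched by locus tag, with the first transcript model of a gene. The nuclear chromosomes of TAIR10.1 are those of TAIR10, but gene models may differ from those used for counting. Proteins were translated from this annotation and aligned globally with BLOSUM62 and gap penalties of 11 and 1. The RING pattern allowed the usual spacings of a C3HC4 finger.

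The 6 genes and the lists were chosen with earlier results of these data known. Named genes are the 6 genes, the highest and lowest gene of each list, and *CO*, *GI*, *FKF1*, *FT*, *CUL4*, *DDB1A*, *DDB1B*, *RUP1*, *RUP2*, *HY5* and *NUP96*. *CRY2*, the genes that overlap a member and the other markers were named after their values were seen. Genes of similar pattern could not be named from 1 pooled value. *LAF1*, *EXPA7* and *CRU3* were listed but are not analysed here. Alternatives were other lengths, a filter at 1 CPM, the other tables and another denominator of identity. Calculations used Python 3.11.15, NumPy 2.4.6, pandas 2.3.3, SciPy 1.17.1, Biopython 1.88 and matplotlib 3.10.9.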

Additional observations from a re-analysis of the deposited data

How the results depend on the processing

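The mean abundance of the 6 genes was the same in each of the 3 tables. In CPM the median percentile of the 6 genes among all genes was 84.0%, against 79.4% among genes with at least 1 CPM and 71.4% when ranked per kb. Of 18 values per kb recomputed with another gene length, 11 moved beyond their counting interval, among them all 6 with the coding length, which is shorter than the transcript by construction. The order of the 6 genes was kept with the longest transcript and the union of exons, and 4 of 6 places were kept with the coding length. None of these alternatives covers a loss of reads across exon junctions. The median of the 45 measured list genes was 13.0 CPM per kb, and 13.1 with the filter at 1 CPM. The identity of SPA3 and SPA4 was 80.4% over aligned residues without gaps. No paired analysis was possible because the tables were used only for a mean over all libraries, which carries no replicate numbers, and for the same reason leaving out single replicates, DESeq2 size factors and a count test were not run. Depth did not limit the 6 genes, whose counting intervals were at most 2.79% to either side, while the spread between libraries is unknown here.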
